A study of Mus musculus with 26 samples.

Results

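The 396 largest heavy-chain clonotypes of 4 mouse lymph nodes were compared with the 185226 clonotypes of the same nodes that were seen as 1 copy. A clonotype was a V gene, a J gene and a junction, the nucleotides from the conserved cysteine codon to the conserved tryptophan codon around CDR3. Members were chosen by their copies: a clonotype was called expanded when it occurred in both technical libraries of a replicate with 50 or more copies in all, and single-copy when it had 1 copy in all. Lymph nodes 1 to 4 held 52, 163, 54 and 127 expanded clonotypes and 10166, 81999, 25867 and 67194 single-copy clonotypes, of 27520, 117561, 52209 and 96202 clonotypes. All 12 lymph node, spleen and skin replicates of the series held 1287887 clonotypes, counted per replicate. Every animal was labelled WT and had been associated with S. epidermidis, a bacterium of the skin, so no unassociated control entered the comparison. The labels give the cells as B cells and the tissue as ear skin for all libraries, and lymph node comes from the titles. The labels call the 4 nodes biological replicates, without stating animal or pooling.

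A heavy chain is encoded by a V, a D and a J segment joined in each developing B cell, so the junction was used to mark a clone. A junction that recurs in several nodes, as some printed below, need not mark 1 clone. Naive B cells carry IgM and IgD on their surface from 1 RNA precursor. After activation, class switching replaces them with IgG, IgA or IgE, and germinal centre B cells acquire point mutations in the V segment. B-1 cells, a self-renewing population best known from body cavities, make natural IgM with recurrent V genes such as Ighv11-2. Plasma cells contain far more heavy-chain RNA per cell than resting B cells, and in bulk RNA more cells of a clone and more RNA per cell cannot be told apart. Copies are therefore not cells, and whether they count RNA molecules or reads is not stated.

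The junctions that recurred as expanded clonotypes in several nodes, and the largest of each node, are printed here because the later results turn on them. They are written from 5′ to 3′ with the first and the last codon in capitals.
IGHV11-2 with IGHJ1, expanded in lymph nodes 1, 2, 3 and 4: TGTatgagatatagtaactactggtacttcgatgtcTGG
IGHV11-2 with IGHJ1, expanded in lymph nodes 2, 3 and 4: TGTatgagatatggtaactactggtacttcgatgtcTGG
IGHV11-2 with IGHJ1, expanded in lymph nodes 1, 2 and 3: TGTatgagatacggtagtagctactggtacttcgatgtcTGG
IGHV7-1 with IGHJ1, expanded in lymph nodes 1, 2, 3 and 4: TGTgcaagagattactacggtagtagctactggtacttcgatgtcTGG
IGHV3-6 with IGHJ2, expanded in lymph nodes 1, 2 and 4: TGTgcaagctatagtaactttgactacTGG
IGHV1-26 with IGHJ3, largest of lymph node 1: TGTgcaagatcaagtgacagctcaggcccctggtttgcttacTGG
IGHV1-22 with IGHJ1, largest of lymph node 2: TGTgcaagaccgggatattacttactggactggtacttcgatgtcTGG
IGHV9-1 with IGHJ4, largest of lymph node 3: TGTgtaacccctctacgggactacTGG
IGHV9-3 with IGHJ2, largest of lymph node 4: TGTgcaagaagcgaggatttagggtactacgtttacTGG

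Several features of the libraries bear on all results. Technical libraries held 44772 to 117512 copies. Of the expanded clonotypes of lymph node 3, 26 of 54 (48.1%) were also listed in lymph node 2; over the other ordered pairs of nodes the share was 4.72% to 23.1%. Summed over all 12 pairs, 138 such matches were found, 92 of them at 11 or fewer copies in the other node and 42 at 50 or more. Low-level matches between libraries were not removed, and their source was not tested. Within a library nearly every distinct sequence carried 1 constant gene: 0 to 6 sequences per replicate, of 33603 to 143737, carried several. The isotype of a sequence is thus 1 call per library. Among sequences with 1 copy in each technical library, the calls of both libraries differed for 16.7%, 25.3%, 23.1% and 25.7%. In lymph nodes 2, 3 and 4, 562 of 572, 43 of 45 and 444 of 453 of these were IgM against IgD. Of the 396 expanded clonotypes, 38 had a different majority isotype in each technical library, 25 of them IgM in one and IgG2 in the other.

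Copies and presence in both libraries defined the expanded clonotypes, so their sizes are given without a test. Expanded clonotypes were 0.103% to 0.189% of the clonotypes of a node. They held 12.0%, 22.7%, 13.0% and 35.1% of the copies in lymph nodes 1 to 4, and the single-copy clonotypes 10.9%, 36.0%, 21.0% and 30.8%. The median expanded clonotype had 113.5, 153, 110.5 and 160 copies, and the largest 2744, 2994, 4015 and 20300. Lymph node 4 stood out: its largest clonotype alone held 9.32% of the copies, against 1.31% to 3.26% in the other nodes. No clonotype of 50 or more copies was confined to 1 technical library. Just inside the limit, 25 of 41 clonotypes with 50 to 59 copies had a class-switched majority and their V segments differed from germline at 1.22% of bases; just outside, 29 of 58 clonotypes with 40 to 49 copies were class-switched, with 1.502%.

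**Figure D1:**
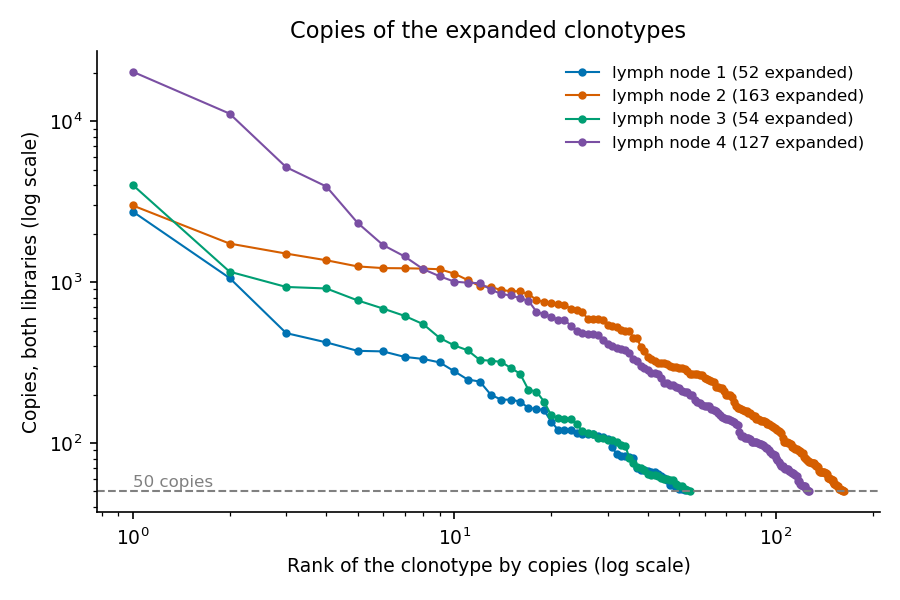
Copies of each expanded clonotype (vertical log axis, both technical libraries summed) against its rank within its node (horizontal log axis), with 1 line per lymph node and the limit of 50 copies dashed. The line of lymph node 4 begins at 20300 copies, and those of the other nodes at 2744 to 4015.

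The 3 largest clonotypes of each node differed in V gene, isotype and mutation. In lymph node 1 they were the IGHV1-26 clonotype with 2744 copies, all IgG2 and all of 1 unmutated sequence, an IGHV10-1 clonotype with 1061 copies, all IgM, and an IGHV5-17 clonotype with 482 copies, 95.0% IgM. In lymph node 2 the IGHV1-22 clonotype had 2994 copies, all IgG2, and was mutated at 3.31% of V bases. An IGHV1-69 clonotype with 1736 copies and an IGHV6-3 clonotype with 1504 copies were unmutated IgM. The 3 largest of lymph node 3 were IgG2 by majority with nearly unmutated V segments: IGHV9-1 with 4015 copies, IGHV2-3 with 1161 and IGHV14-3 with 933. The IGHV1-26, IGHV1-69 and IGHV6-3 clonotypes each held 1 distinct sequence, so their isotype rests on 1 call per library. In lymph node 4 the isotype of the 3 largest was not settled, since these calls differed between its libraries. The IGHV9-3 clonotype had 10232 copies in one library, listed as IgG2, and 10068 in the other, listed as IgM. The IGHV5-9-1 clonotype (11150 copies) was listed as IgA in one library and IgM in the other, and an IGHV3-6 clonotype (5179 copies) as IgG2 and IgM.

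Class-switched clonotypes were far more frequent among expanded than among single-copy clonotypes in every node. A class-switched majority was carried by 38.5%, 54.0%, 55.6% and 49.6% of the expanded clonotypes of lymph nodes 1 to 4, and by 3.54%, 2.91%, 2.66% and 2.05% of the single-copy clonotypes. The groups did not overlap. The means were 49.4% ± 7.72 and 2.79% ± 0.619 (SD, n = 4), a 17.7-fold ratio. The difference was 46.6 percentage points ± 8.10 and positive in 4 of 4 nodes, with p = 0.125 in an exact two-sided sign-flip permutation test, the smallest p that 4 pairs allow, and 0.2 after Benjamini-Hochberg adjustment over 8 single values. Restricting the expanded clonotypes to those with the same majority isotype in both libraries, a choice made after seeing the data, left a difference of 43.7 points. Grouping clonotypes with similar junctions into lineages gave a difference of 16.7 points, but for another set of members. Then 985 lineages reached 50 copies, whereas the expanded clonotypes lay in only 346 lineages. The others held no expanded clonotype and reached the limit by adding up smaller ones. The 16.7 points are thus not the value of the same clones with relatives merged. This limit applies to all later results with lineages.

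By isotype, edgeR's quasi-likelihood test on numbers of clonotypes, with the node as a block and Benjamini-Hochberg adjustment over all 97 classes tested, called 5 of 7 isotypes (71.4%), against 12 of 97 classes (12.4%) in the whole table. The classes of 1 kind add up to all clonotypes, so they are not independent of each other. IgG2, which pools the IgG2 subclasses, had the largest share of the switched members. It was the majority isotype of 23.1%, 43.6%, 50% and 33.1% of expanded clonotypes in lymph nodes 1 to 4, against 2.05%, 2.03%, 1.89% and 1.25% of single-copy clonotypes, a log2 fold change of 4.45 (SE 0.21, edgeR adjusted p = 1.94e-58). Every expanded share lay above every single-copy share. IgA, the class secreted at mucosal surfaces, marked 5.77%, 3.68%, 5.56% and 10.2% of expanded clonotypes and 0.905%, 0.360%, 0.491% and 0.405% of single-copy clonotypes, a log2 fold change of 3.77 (SE 0.46, edgeR adjusted p = 1.00e-13). IgG1 marked 7.69%, 4.91%, 0% and 4.72% of expanded and 0.209% to 0.403% of single-copy clonotypes, with a log2 fold change of 3.82 (SE 0.55, edgeR adjusted p = 3.87e-10). Lymph node 3 had no expanded IgG1 clonotype, so these groups overlapped.

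IgM was lower. It was the majority isotype of 61.5%, 46.0%, 44.4% and 50.4% of expanded clonotypes against 76.6% to 79.8% of single-copy clonotypes, a log2 fold change of -0.66 (SE 0.09, edgeR adjusted p = 1.39e-10). With DESeq2 the adjusted p was 0.0825, and with lineages the change was 0.062. IgD was the majority isotype of 0 of 396 expanded clonotypes, which allows a share of up to 0.758%, and of 16.6%, 20.5%, 18.3% and 19.8% of single-copy clonotypes. Against a floor of 3 clonotypes over all nodes its share was at least 26.0-fold lower (edgeR adjusted p = 3.64e-23). Only 4 of the 74621 IgM and IgD copies of expanded clonotypes were IgD. The share of sequences called IgD also depended on the copies of the sequence: 15.8% to 19.7% at 1 copy in a library, and 0 of the sequences with 50 or more copies. Because a sequence carries 1 constant gene per library, IgD copies beside a more abundant IgM could not be seen, and the part of this in the IgD difference was not tested. IgE and IgG3 did not pass the test, with edgeR adjusted p = 0.131 and 0.216. Each was the majority of 3 expanded clonotypes, and of 20 (IgE) and 223 (IgG3) single-copy clonotypes. Of the expanded clonotypes, 349 had 90% or more of their copies in 1 isotype and 69 held both unswitched and switched copies. The 349 do not measure purity, since a clonotype dominated by 1 sequence shows mostly 1 isotype per library whatever its mix. The 69 include clonotypes called unswitched in one library and switched in the other, as the 3 largest of lymph node 4. Such cases were not separated from clonotypes with members of both kinds.

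**Figure D2:**
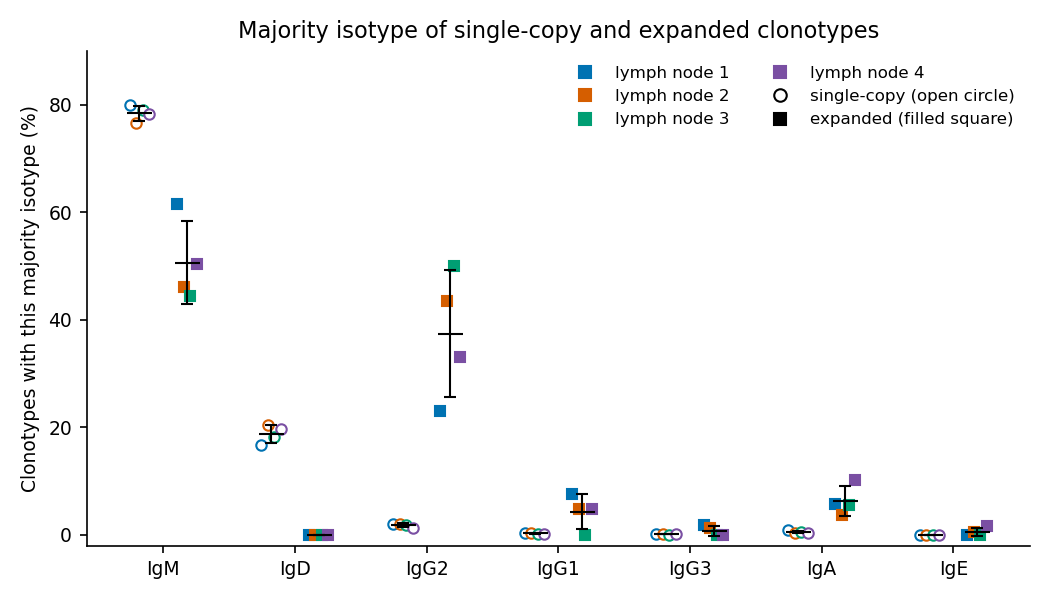
Share of clonotypes (vertical axis, %) with each majority isotype, with open circles for single-copy and filled squares for expanded clonotypes of the 4 nodes, and mean and SD in black. IgG2 reached 23.1% to 50% of expanded clonotypes and at most 2.05% of single-copy clonotypes.

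V mutation is the share of aligned V bases that differ from the germline gene. Over all isotypes it was 0.729%, 1.07%, 1.36% and 0.699% per expanded clonotype in lymph nodes 1 to 4, and 0.985%, 0.735%, 0.797% and 0.566% per single-copy clonotype. The expanded mean was higher in 3 of 4 nodes and lower in lymph node 1, and the difference of 0.20 points ± 0.35 (SD, n = 4) was within the spread between nodes (exact sign-flip permutation p = 0.375, adjusted p = 0.429). Within IgM and within all class-switched clonotypes together, the expanded mean was lower in all 4 nodes. IgG1 alone was not: expanded IgG1 clonotypes had 1.71% against 1.62% in lymph node 1 and 2.73% against 2.62% in lymph node 2, on 4 and 8 expanded clonotypes. It was lower in lymph node 4, with 1.24% on 6 expanded clonotypes against 2.09%, and lymph node 3 had no expanded IgG1 clonotype. Expanded IgM clonotypes had 0.895%, 0.307%, 0.212% and 0.196%, and single-copy IgM clonotypes 0.961%, 0.668%, 0.733% and 0.532%. Only lymph node 1 had an expanded IgM mean inside the single-copy range. Expanded class-switched clonotypes had 0.464%, 1.73%, 2.28% and 1.21%, and single-copy class-switched clonotypes 1.71%, 2.49%, 2.64% and 1.93%. The differences were -0.32 ± 0.19 for IgM and -0.77 ± 0.37 points for class-switched clonotypes (SD, n = 4; exact sign-flip permutation p = 0.125 for each, adjusted p = 0.2 for each).

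The IgM difference depended on the single-copy class. Clonotypes of 2 to 9 copies had a mean IgM mutation of 0.248%, below the single-copy mean of 0.723%. Against them expanded IgM clonotypes were 0.15 points higher on average, but not in every node. By node the means at 2 to 9 copies were 0.298%, 0.226%, 0.254% and 0.214%. The expanded mean was above them in lymph nodes 1 (0.895%) and 2 (0.307%) and below them in lymph nodes 3 (0.212%) and 4 (0.196%). For class-switched clonotypes the difference against 2 to 9 copies stayed negative, at -0.43 points. Single-copy clonotypes whose junction was 1 base from a larger clonotype with the same V and J gene made up 31.9%, 4.98%, 12.4% and 4.45% of the class in lymph nodes 1 to 4. Leaving them out gave -0.40 points for IgM and -0.95 points for class-switched clonotypes. Errors of amplification or sequencing would count as mutations in a clonotype of 1 copy; among expanded clonotypes whose most abundant sequence was unmutated, the listed copies carried 0.0209% to 0.0652% mismatches per node. Their part in the single-copy values was not tested.

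Most expanded clonotypes were led by an unmutated sequence. The sequence with most copies matched the germline V segment in 262 of 396, that is in 166 of 195 IgM clonotypes and 96 of 201 class-switched clonotypes. By node the unmutated share was 78.8%, 59.5%, 53.7% and 74.8%, against 50.6%, 61.7%, 58.6% and 66.5% of single-copy clonotypes. These groups overlapped (log2 fold change 0.11, edgeR adjusted p = 0.459). Among class-switched clonotypes, 75.0%, 40.9%, 26.7% and 58.7% of expanded members were unmutated in this sense, against 27.8%, 20.7%, 18.8% and 25% of single-copy clonotypes. Classed by this sequence, only the range above 0 to 1% mutation passed the test (1 of 5 classes, 20%), with 8.21% ± 3.09 of expanded and 20.2% ± 1.69 of single-copy clonotypes (log2 fold change -1.19, SE 0.23, edgeR adjusted p = 9.64e-06). The measures are unlike here: an expanded clonotype shows its most abundant sequence, and a single-copy clonotype its only one, where an error counts as mutation. The part of this in the call was not tested. Expanded members above 2% numbered 74, of which 64 were class-switched. With the mean over copies in place of the leading sequence, 3 of 5 classes (60%) passed. Of these, the calls for 0% and for above 0 to 1% are not used, since an average over many copies is rarely exactly 0. The third was the range above 2 to 4%, with 11.8% ± 5.71 of expanded and 8.25% ± 2.47 of single-copy clonotypes (log2 fold change 0.72, SE 0.26, edgeR adjusted p = 0.0490); by the leading sequence it did not pass (0.66, edgeR adjusted p = 0.0848), and the groups overlapped.

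**Figure D3:**
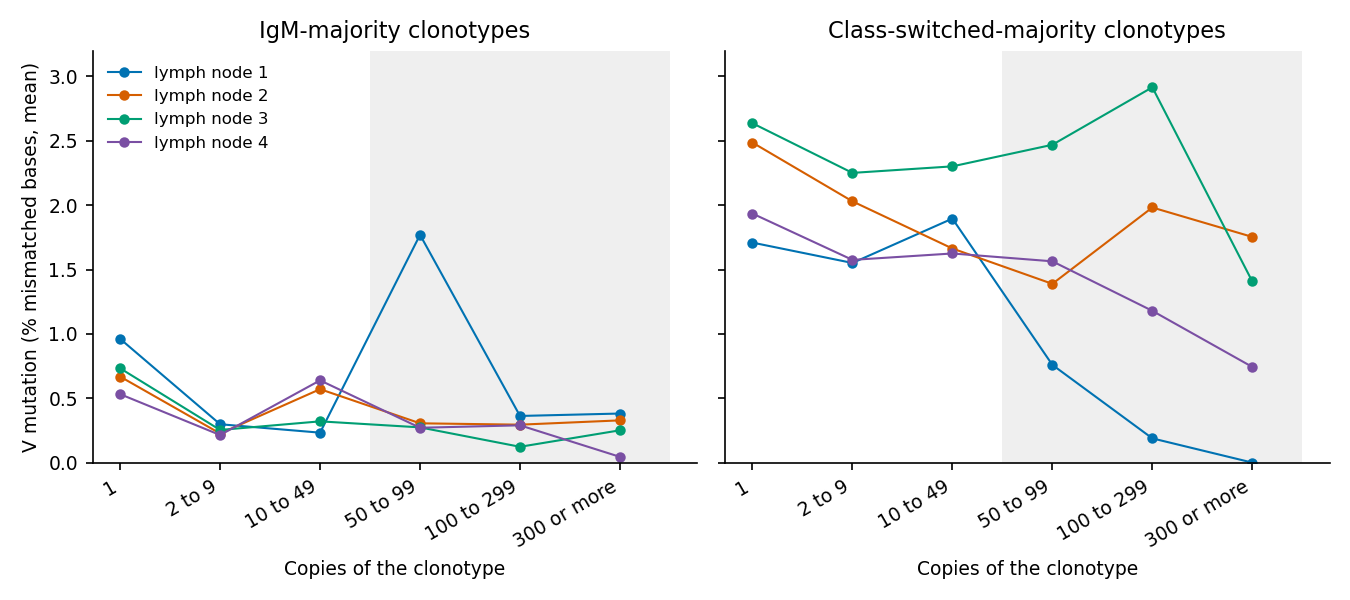
Mean V mutation (vertical axis, % of V bases) by copies of the clonotype (horizontal axis), for IgM-majority clonotypes at left and class-switched-majority clonotypes at right, 1 line per lymph node and the expanded range shaded. IgM means were 0.532% to 0.961% at 1 copy and 0.214% to 0.298% at 2 to 9 copies; the peak of lymph node 1 at 50 to 99 copies, 1.77%, rested on 12 clonotypes.

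Among V genes, 2 of 76 tested passed (2.63%), both higher in expanded clonotypes, and at an unadjusted p under 0.05 there were 10. Grouping into lineages gave another balance, with 33 V genes called, 11 higher and 22 lower. IGHV11-2 (Ighv11-2, GRCm38 chromosome 12, 114048241 to 114048704), a gene typical of B-1 cells, was used by 5.77%, 3.07%, 5.56% and 1.57% of expanded clonotypes and by 0.157%, 0.0939%, 0.101% and 0.115% of single-copy clonotypes. The groups did not overlap, and the log2 fold change was 4.89 (SE 0.80, edgeR adjusted p = 4.17e-08), between 3.04 and 5.97 and past the threshold in all 16 alternatives that could test it. All 13 expanded IGHV11-2 clonotypes were IgM, used IGHJ1, had an unmutated leading sequence, had a CDR3 of 10 to 12 residues, and were found in the spleen of the same number. Their median size was 147 copies and their largest 684. The 13 were counted per node and were not all distinct junctions. The 3 IGHV11-2 junctions printed first recurred in 4, 3 and 3 nodes. They were the only expanded IGHV11-2 junctions of lymph nodes 3 and 4, and exchange between libraries was not tested. Of the other B-1 genes on the list, IGHV12-3 had 1 expanded clonotype of 132 copies and IGHV11-1 none. Together the 3 genes made up 1.57% to 5.77% of expanded and 0.131% to 0.191% of single-copy clonotypes. Only IGHV11-2 passed edgeR's filter for low counts. It did so through its expanded shares, since its single-copy shares lay below the limit of the filter. It thus entered the test through the group where it was high, while IGHV12-3, with 92 single-copy clonotypes, did not enter.

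IGHV6-3 (chromosome 12, 114391712 to 114392010) was used by 1.92%, 5.52%, 3.70% and 5.51% of expanded and 1.27%, 1.49%, 1.39% and 1.82% of single-copy clonotypes. Its lowest expanded share lay just above its highest single-copy share, but rested on 1 clonotype in lymph node 1. The log2 fold change was 1.62 (SE 0.45, edgeR adjusted p = 0.00395). The call was lost without lymph node 2 (adjusted p = 0.274) or lymph node 4 (0.117), against clonotypes of 2 to 9 copies (0.185), with limits of 20 or 100 copies (0.206 and 0.0614) and in technical library 1 alone (0.129), all from edgeR. Of its 19 expanded clonotypes 14 were IgM and 15 were found in the spleen of the same number. The next V genes by p did not pass. IGHV6-6 (chromosome 12, 114434788 to 114435087) had 2.78% ± 0.867 of expanded and 0.979% ± 0.122 of single-copy clonotypes (edgeR adjusted p = 0.0751). IGHV1-50 (chromosome 12, 115119748 to 115120041) had 1 expanded clonotype and 1.92% ± 0.149 of single-copy clonotypes (adjusted p = 0.0680, edgeR). IGHV1-18 (chromosome 12, 114682632 to 114682925) had 1.92%, 4.29%, 18.5% and 7.87% of expanded and 3.40% to 4.72% of single-copy clonotypes (adjusted p = 0.105, edgeR).

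V families showed no called member beside these. The large IGHV1 (J558) family held 53.8% to 64.8% of expanded and 63.0% to 66.5% of single-copy clonotypes, with 0 of 40 tested genes called and a median log2 fold change of -0.44. For IGHV5 the median was -0.34 over 8 genes, for IGHV9 -1.54 over 4, for IGHV2 (Q52) 0.69 over 6, for IGHV3 0.49 over 3 and for IGHV14 1.18 over 3, against -0.24 over all 76. None of these 64 genes was called in either direction by clonotypes, whereas with lineages 29 genes of these families were. With IgM clonotypes alone 2 V genes were called, IGHV11-2 and IGHV6-3, and with class-switched clonotypes alone, an alternative chosen after seeing the data, 0 of the 9 that edgeR could test, with 0 at an unadjusted p under 0.05.

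**Figure D4:**
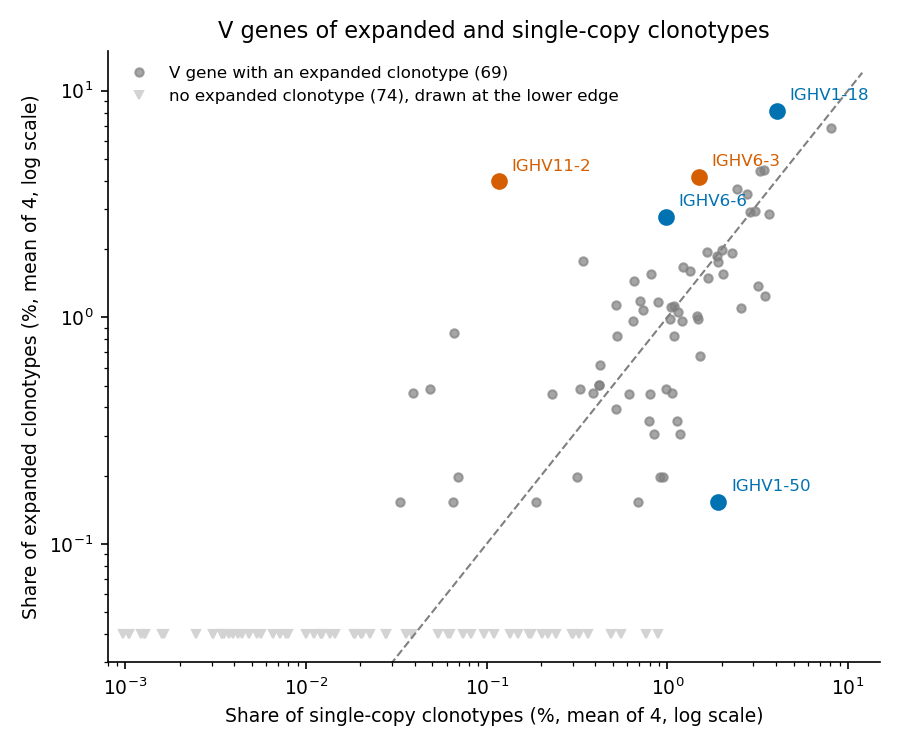
Mean share of expanded clonotypes (vertical log axis, %) against mean share of single-copy clonotypes (horizontal log axis, %), 1 point per V gene, with equal shares dashed. IGHV11-2 lies far above the line, at 3.99% against 0.117%, and the 74 V genes without an expanded clonotype are drawn at the lower edge.

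The 10 expanded IGHV1-18 clonotypes of lymph node 3 were looked at after their share was seen, since that node had the highest. All used IGHJ2, all were IgG2 by majority and all had a CDR3 of 12 residues, with 83.3% to 97.2% identical CDR3 bases between pairs. They held 3122 copies, 19.5% of the expanded copies of that node, in 303 distinct sequences. Only 1 had an unmutated leading sequence, and in 8 the leading sequence was mutated at over 2% of V bases. The bases in capitals differ from the junction shown first, whose clonotype had a leading sequence unmutated in its V segment. The capitals mark differences only. Germline bases within the junction were not determined, so a capital can be the germline base.
IGHV1-18, 617 copies, V mutation of the leading sequence 0%: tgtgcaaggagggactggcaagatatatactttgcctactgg
IGHV1-18, 913 copies, 0.699%: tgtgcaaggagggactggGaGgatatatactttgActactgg
IGHV1-18, 548 copies, 2.10%: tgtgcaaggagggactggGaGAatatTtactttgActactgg
IGHV1-18, 292 copies, 4.90%: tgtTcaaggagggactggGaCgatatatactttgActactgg
IGHV1-18, 60 copies, 4.90%: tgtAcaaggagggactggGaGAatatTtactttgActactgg
Over all nodes the 396 expanded clonotypes fell into 346 lineages. A lineage linked clonotypes of the same V gene, J gene and junction length in steps of 85% or more identical junction bases. Members can be linked through other clonotypes of the node, so whether they descend from 1 cell was not tested.

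J genes were called for 2 of 4 (50%). IGHJ4 (chromosome 12, 113428514 to 113428567) was used by 32.7%, 23.3%, 18.5% and 30.7% of expanded and 36.3% to 41.3% of single-copy clonotypes, a log2 fold change of -0.53 (SE 0.14, edgeR adjusted p = 0.00171). IGHJ3 (chromosome 12, 113429085 to 113429132) was used by 11.5%, 17.8%, 11.1% and 11.8% of expanded and 7.54% to 8.97% of single-copy clonotypes, 0.71 (SE 0.24, edgeR adjusted p = 0.0338). In both, the groups did not overlap. Both calls were lost with DESeq2 (adjusted p = 0.303 and 0.304), without lymph node 2 (edgeR, 0.0600 and 0.636), within IgM clonotypes (0.220 and 0.982) and within class-switched clonotypes (0.721 and 0.845), and both directions turned with lineages (0.46 for IGHJ4 and -1.004 for IGHJ3). The IGHJ3 call was kept in only 6 of 17 alternatives. It was also lost with TMM factors (edgeR adjusted p = 0.242), at 100 copies (0.0567), with no filter on low counts (0.0529), without single-copy neighbours (0.0672), in technical library 1 alone (0.106) and without lymph node 3 (0.0741). IGHJ1 had 23.3% to 29.6% of expanded and 19.5% to 19.96% of single-copy clonotypes and did not pass (log2 fold change 0.36, edgeR adjusted p = 0.143). It passed in 2 of 17 alternatives, within IgM clonotypes (0.75, edgeR adjusted p = 0.00329), where the 13 IGHV11-2 clonotypes also lie, and with lineages (0.42, edgeR adjusted p = 0.000731). IGHJ2 had 34.1% ± 5.74 and 33.2% ± 1.43 (adjusted p = 0.924, edgeR).

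CDR3, the loop at the centre of the antigen-binding site, was shorter on average in expanded clonotypes of every node. Mean lengths were 12.3, 11.4, 11.6 and 12.0 residues in lymph nodes 1 to 4, against 12.6, 12.3, 12.3 and 12.3 for single-copy clonotypes. The difference was -0.54 residues ± 0.31 (SD, n = 4), negative in 4 of 4 nodes (exact sign-flip permutation p = 0.125, adjusted p = 0.2), and between -0.66 and -0.41 over the 14 alternatives. None of 5 length classes passed in edgeR (0%; 2 had an unadjusted p under 0.05) or in DESeq2. The class of 15 to 17 residues held 13.3% ± 3.15 of expanded and 18.7% ± 1.39 of single-copy clonotypes, and the class of up to 8 residues 11.4% ± 2.15 and 7.72% ± 0.765. Mean net charge was -0.38 ± 0.15 and -0.41 ± 0.01, and mean hydropathy on the Kyte-Doolittle scale -0.68 ± 0.06 and -0.73 ± 0.01 (exact sign-flip permutation p = 0.625 and 0.25). Neither differed beyond the spread between nodes. Of 19 amino acids tested with limma on log-odds of their CDR3 share, 0 passed (0%), and 5 had an unadjusted p under 0.05. Tryptophan (log2 odds difference 0.56) and phenylalanine (0.37) were the nearest on the higher side and methionine (-0.46) on the lower, each with a limma adjusted p of 0.0559. The count depended on the setting, with 3 to 10 amino acids called in 8 of 15 alternatives and 0 in the other 7. With only the expanded clonotypes of the same majority isotype in both libraries, phenylalanine (0.38), asparagine (0.37) and tryptophan (0.56) passed, each with a limma adjusted p of 0.0290.

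Expanded clonotypes were found in the spleen of the same replicate number far more often than single-copy clonotypes. The shares were 34.6%, 52.1%, 50% and 47.2% against 0.295%, 3.61%, 1.82% and 2.84%. The difference of 43.9 points ± 6.63 (SD, n = 4) was positive in 4 of 4 nodes (exact sign-flip permutation p = 0.125, adjusted p = 0.2). A clonotype with more copies has more chances of being drawn in both tissues, and the part of this in the difference was not tested. In spleens of other numbers the shares of expanded clonotypes were 3.68% to 13.5%, below the lowest same-number share. Of single-copy clonotypes, 0.0566% to 1.10% were found there. In lymph node 1 the share in the same-number spleen, 0.295%, lay below its shares in all the others, of 0.354% to 1.01%. Spleen 1 held 25645 clonotypes in 162168 copies, and the other spleens 223824 to 438995 clonotypes in 457138 to 1362176 copies. The part of this depth in the shares was not tested. Counting only finds of 10 or more copies in the spleen, a choice made after seeing the data, gave 32.7%, 42.3%, 29.6% and 27.6% of expanded and 0.0492% to 0.343% of single-copy clonotypes. Expanded IgM clonotypes were found in the same-number spleen in 37.5%, 68.0%, 62.5% and 62.5% of cases, and expanded IgG2 clonotypes in 25%, 36.6%, 33.3% and 16.7%. Expanded IgA clonotypes were found in 1 of 3, 6 of 6, 3 of 3 and 12 of 13 cases. Single-copy clonotypes of IgA were also found more often than single-copy clonotypes as a whole, in 3.26%, 42.7%, 18.9% and 26.8% of cases, against 1.92%, 7.51%, 2.05% and 2.98% for IgG2 and 0.246% to 3.55% for IgM; the contrast between isotypes was not tested. In skin of the same number 0.787% to 5.77% of expanded clonotypes were found, 9 in all, and in skin of other numbers 0% to 5.56%. Each skin replicate held only 275 to 350 clonotypes.

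**Figure D5:**
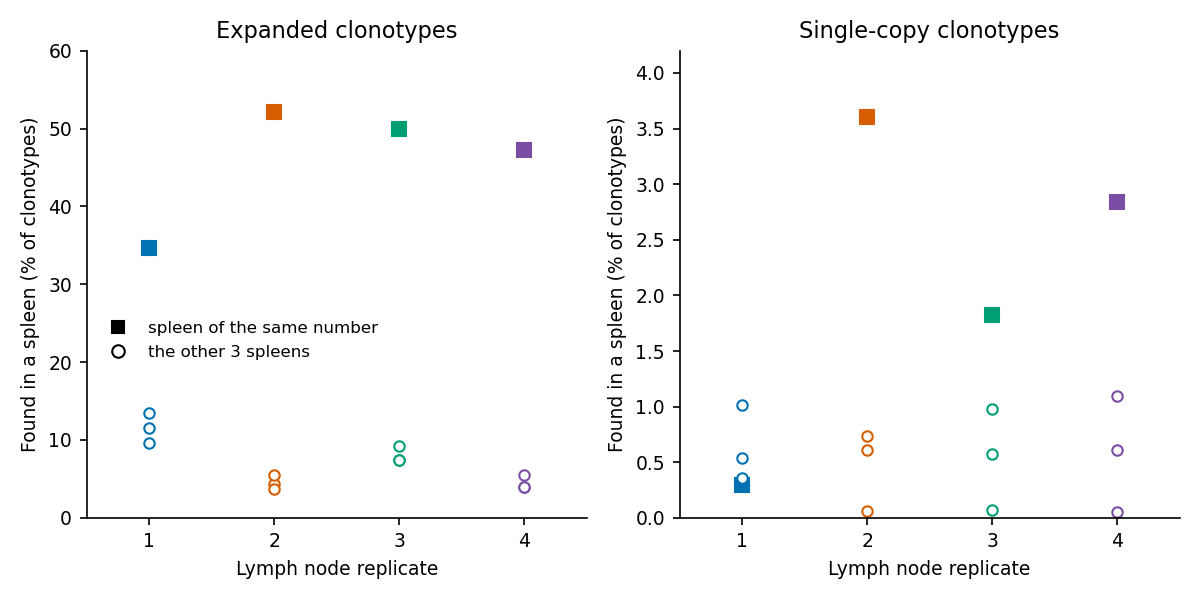
Share of lymph node clonotypes (vertical axis, %; scales differ between panels) found in the spleen of the same number (squares) and in the 3 spleens of other numbers (circles), for expanded clonotypes at left and single-copy clonotypes at right. Squares lie at 34.6% to 52.1% for expanded clonotypes, with circles at 3.68% to 13.5%.

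The 5 junctions printed first were expanded in 3 or 4 nodes each, with 53 to 1213 copies, always with an IgM majority and with at most 0.133% V mutation. All 5 occurred in all 4 spleens. The IGHV7-1 clonotype had 371, 199, 209 and 1007 copies in lymph nodes 1 to 4 and up to 14742 copies in a spleen. The IGHV11-2 clonotype expanded in all nodes had 181, 674, 96 and 69 copies. The IGHV3-6 clonotype had 53, 1213 and 283 copies in lymph nodes 1, 2 and 4 and was not listed in lymph node 3. Recurrence at this level in several libraries was part of the sharing described for the nodes. Its source was not tested, whether exchange between libraries or the same joining in separate cells. For 1 further receptor, IGHV6-3 with IGHJ2, the same CDR3 protein was expanded in lymph nodes 1, 2 and 4 but each node used another nucleotide junction. The bases that differ among these 3 are in capitals.
IGHV6-3, lymph node 1, 186 copies, IgM: tgcacAggcgatctactTAgGgactactgg
IGHV6-3, lymph node 2, 137 copies, IgM: tgcacAggcgatctactACgGgactactgg
IGHV6-3, lymph node 4, 2337 copies, 51.4% IgA: tgcacCggcgatctactCCgTgactactgg
They differ at 4 positions in all, and by 2 to 4 bases between pairs.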

How the data were processed

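For every technical library the deposited tables give 1 line per distinct heavy-chain read sequence, with the assigned V, J and C genes, the junction and a count in whole numbers (copies); whether it counts molecular identifiers or reads is not stated. Per the labels' protocols, RNA was reverse-transcribed with molecular identifiers and amplified with V gene primers. The deposited tables also hold V mismatches and aligned V length, other measurements than counts, from which V mutation was computed. Per the submitters' processing notes the build was mm10; the program that assigned genes is not stated there. Positions are from RefSeq's table for GRCm38; 117 of 154 gene names matched.

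Copies of both technical libraries were added. A clonotype's isotype was its majority of copies, and its V mutation the mean over copies. Numbers of expanded and single-copy clonotypes per class were tested with edgeR 4.0.16 (R 4.3.3; quasi-likelihood, total clonotypes as library size, edgeR's filter for low counts, node as block). CDR3 amino acid shares were tested with limma 3.58.1, and single values by exact sign flips over the 4 nodes (16 flips). The tests were tested on simulated data. Sign-flip p-values measure the spread between the 4 nodes. Those of edgeR and limma also draw on a spread shared over all classes or amino acids. They can therefore fall below 0.125, the smallest p of the sign-flip test. DESeq2 1.42.0, TMM factors, no filter, no block, other limits of 20 and 100 copies, other small classes, single technical libraries (25 copies or more), lineages, and each node left out were alternatives. Python 3.11.15 with numpy 2.4.6, pandas 2.3.3 and scipy 1.17.1 was used. A limit for a count of 0 is 3 counts over the total, and limits cover counting error only. V genes were named at an adjusted p under 0.05, or, if fewer than 3 passed, the 5 with the smallest p; clonotypes named were the 3 largest per node. The members, lists and rules were chosen with earlier results of these data known. Expanded and single-copy values are paired because both come from the same node.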

Additional observations from a re-analysis of the deposited data

Results flagged for a closer look

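Among 56 sets of 4 nodes, 3 had 1 node far from the others by Dixon's criterion, which chance meets in about 1 of 20 sets. V mutation of expanded IgM clonotypes was 0.895% in lymph node 1, against 0.196% to 0.307% in the other nodes; 5 of its 32 expanded IgM clonotypes had a leading sequence mutated at over 2% of bases. IGHJ3 was used by 17.8% of the expanded clonotypes of lymph node 2, against 11.1% to 11.8% elsewhere, and without that node the IGHJ3 difference did not pass (edgeR adjusted p = 0.636). IGHV1-50 had its only expanded clonotype in lymph node 2, 0.613% of its expanded clonotypes, against 0% in the others.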

How the results depend on the processing

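The direction of the class-switched share, class-switched mutation, CDR3 length and spleen differences held in all alternatives (16.7 to 56.0, -1.57 to -0.43, -0.66 to -0.41 and 32.9 to 62.4). With no replicate block (unpaired nodes) the exact permutation p of the class-switched and spleen shares was 0.0286 (adjusted p = 0.114), V genes called were 4 and amino acids called 4; the numbers of isotypes and J genes called did not change with the pairing. Lineages gave 33 V genes (11 higher, 22 lower), 4 J genes, 10 amino acids, overall V mutation -0.40, net charge -0.19, hydropathy -0.13, and log2 changes of -0.56 for IGHJ2, -1.004 for IGHJ3, 0.46 for IGHJ4 and 0.062 for IgM; 985 lineages then reached 50 copies. The least mutated sequence gave an overall V mutation difference of -0.34, and clonotypes of 2 to 9 copies an IgM mutation difference of 0.15, 1 V gene and 4 amino acids. Limits of 100 and 20 copies gave 4 and 5 V genes and 3 and 5 amino acids; at 100 copies 1 J gene and a net charge difference of -0.011. Expanded clonotypes with the same majority isotype in both libraries gave 3 amino acids. Technical library 1 alone gave 1 V gene, 1 J gene and 5 amino acids, and single-copy clonotypes without neighbours 1 J gene and 4 amino acids. DESeq2 gave 0 J genes (2 at an unadjusted p under 0.05), and TMM, no filter and IgM clonotypes alone 1 each; IGHJ2 turned to -0.26 with TMM and -0.20 within IgM. Class-switched clonotypes alone gave 0 V genes and 0 J genes (edgeR, 0 and 0 at an unadjusted p under 0.05), net charge -0.029, hydropathy -0.0085 and IGHJ1 -0.072. Leaving out each node gave 1 to 3 V genes, 0 to 2 J genes (without lymph node 2, 0 by edgeR, 2 at an unadjusted p under 0.05), 5 to 6 isotypes, net charge differences of -0.026 to 0.071 and IGHJ2 changes of -0.022 to 0.059. The cause of these shifts was not tested. Small numbers of expanded clonotypes, 52 to 163 per node, limit the V gene tests.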

Other observations

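Expanded IgE clonotypes were 3, of which 1 in lymph node 2 (IGHV14-4, 135 copies, all IgE) and 1 in lymph node 4 (IGHV1-39, 135 copies, 87.4% IgE) were mostly IgE, and 1 in lymph node 4 (IGHV5-16, 1204 copies) was IgE for 50.1% of copies. None of the 3 was listed in the spleen of the same number. All 3 had an unmutated leading sequence. In lymph node 2, 3 IGHV6-6 clonotypes with IGHJ3 and a CDR3 of 7 residues were IgG1 by majority, with 502, 447 and 92 copies and V mutation of 2.05%, 2.61% and 2.11%. These were chosen after their values were seen and carry no test.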
